A study of Mus musculus with 6 samples.

Results

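The type I interferon-stimulated genes outside the OAS, GBP, IRG, Ifi200, STAT and IRF families were examined in CD8- dendritic cells from mouse spleen. Libraries with CpG were compared with libraries without it. The genes were taken as 49 named ones, matched by symbol to Entrez gene IDs, and all 49 were among the 27179 genes counted. Messenger RNA had been counted in 6 libraries from C57BL/6 mice, 3 titled No CpG (called untreated here) and 3 titled CpG. Replicate numbers 2, 3 and 4 occurred in each group. CpG DNA is sensed by Toll-like receptor 9. The title of the series speaks of paralysed cells following systemic inflammation. In both groups the cells were enriched from spleen, sorted by surface labelling and lysed without culture. The series text calls the 3 samples of a group biological replicates. Mouse age, the sequence, dose, route and timing of the CpG, and whether a library pooled several mice are details not given in the sources used here.

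Type I interferons bind a receptor shared by nearly all nucleated cells, and kinases attached to it then pass the signal to the nucleus. There, genes with interferon-stimulated response elements in their promoters are switched on, whose products sense viral RNA and DNA, block viral entry, replication and release, or tune the response itself. Dendritic cells both produce interferon after Toll-like receptor signalling and respond to it, and many of these genes are also transcribed at rest.

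Total counts lay between 7855500 and 8228140 per library. Defining genes of conventional dendritic cells were abundant: Itgax, which encodes CD11c, stood at 2200 CPM (counts divided by normalised library size) in untreated libraries and at 1970 CPM in those with CpG, on average, and Sirpa, a receptor of the CD8- subset, at 1375 and 1309 CPM. Cd8a, against which the cells were sorted, was at 2.48 and 3.58 CPM. Some other subset markers differed between the groups. Of 11 markers of CD8- conventional dendritic cells, Itgax and Sirpa among them, Esam was lower by edgeR (log2 fold change -0.75, adjusted p = 0.0444), and 4 were lower with a replicate block, described below (Esam, Cd4, Cd209a and Dtx1). Of 9 markers of the CD8+ subset none was called without the block, and Xcr1, Itgae and Tlr3 were higher with it (1.21, 2.15 and 0.80), each lowest in CpG library 4 within its group. Itgae had 9, 10 and 8 counts in untreated libraries and 6 in CpG library 4, below all of them. The other markers were not called with the block. Cadm1 and Batf3 had -0.406 and -0.244 there, Clec9a and Wdfy4 0.01 and -0.019, and Cd8a and Naaa 0.545 and 0.541. The first list summed to 5906 to 6500 CPM without CpG and 5126 to 6301 CPM with it, and the second to 1762 to 2909 and 2049 to 2731 CPM. Most of the second sum was Wdfy4, at 1539 to 2707 CPM without CpG and 1790 to 2532 CPM with it. That sum therefore says little about the other markers of the CD8+ subset. Markers of red blood cell precursors differed between the groups as well. The 11 erythroid marker genes counted summed to between 43.4 and 117 CPM in untreated libraries and to 1138, 1078 and 260 CPM in CpG libraries 2, 3 and 4, 5 of the 7 tested were higher by edgeR (3 with the block), and Hba-a1 was at 0 throughout. The 12 red pulp macrophage markers summed to 555 to 713 CPM and 362 to 491 CPM, with 4 lower (9 with the block) and none at 0. Most of that sum was Adgre1 (352 and 302 CPM on average), which neither fit called, so the sum says little about the others. Over all genes tested, 0.474% were called higher and 0.50% lower by edgeR, and 4.73% and 3.78% with the block. The part of any of these marker differences in the results below was not tested.

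All 49 genes were expressed in both groups and passed the filter on low counts, so none entered the test through 1 group alone. Summed over the 49, they made up 5015, 4825 and 4988 CPM in untreated libraries 2, 3 and 4 and 6207, 6571 and 5545 CPM in CpG libraries 2, 3 and 4. The groups did not overlap in this sum, and CpG library 4 lay nearest to the untreated ones. In bulk samples, a change in the number of cells of one type and a change in RNA per cell cannot be told apart.

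Levels were compared between genes per kilobase of exon, which removes the effect of transcript length. On that scale Ifitm3, which encodes a membrane protein that blocks virus entry, was the highest of the 49, at a mean of 373 CPM per kilobase in untreated and 466 in CpG libraries. It was followed by Ifi27l2a (155 and 194 CPM per kilobase) and by Epsti1 (148 and 172), an epithelial-stromal interaction gene. In untreated cells Ifi44 was the lowest, at 1.36 CPM per kilobase, with 11.1 after CpG. Mx2 was next lowest at 5.41 and 5.43. Of the 48 pairs of neighbours in this order, 47 had ranges over the 6 libraries that overlapped. The exception was Ifitm3 over Ifi27l2a, as the plot of levels per length shows.

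**Figure D1:**
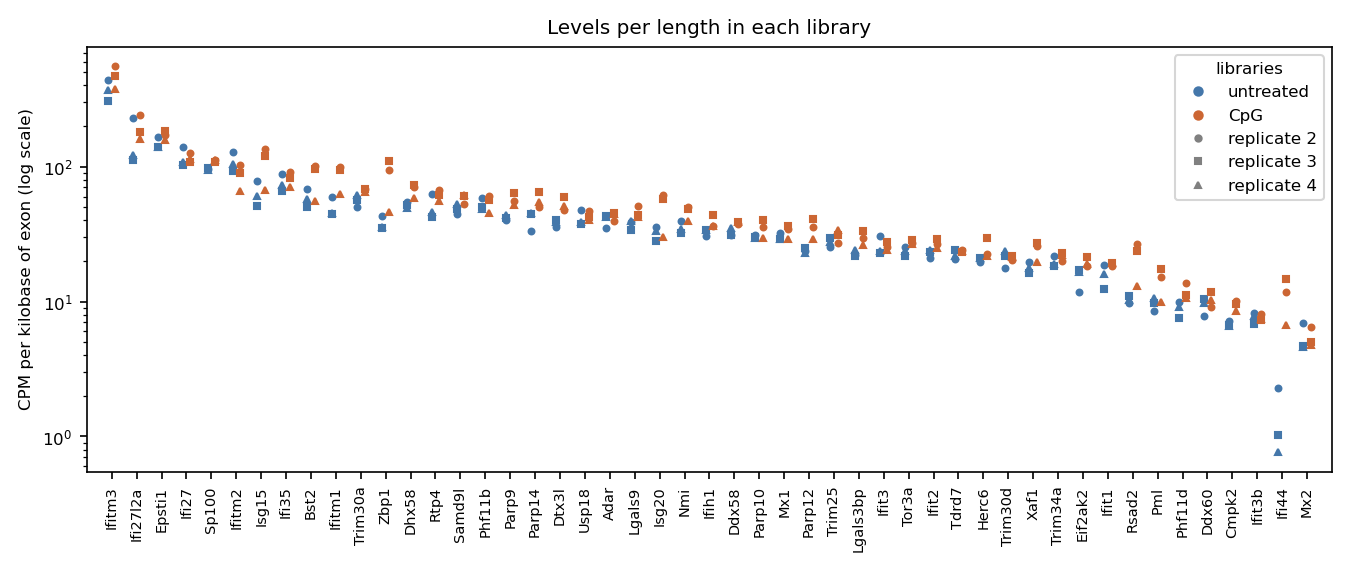
Level of each of the 49 genes in CPM per kilobase of exon (log axis), 1 point per library, blue for untreated and orange for CpG, with marker shapes for replicate numbers, ordered by the mean of 6 libraries. Ifitm3 lies at the top (373 and 466 on average) and Ifi44 has the widest gap between the groups (1.36 and 11.1).

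Most of the 49 genes had somewhat higher values after CpG, but 1 passed the test over all genes. By edgeR's quasi-likelihood test with Benjamini-Hochberg adjustment, 1 of 49 rose (2.04%) and 0 fell, where 0.474% of the 11602 genes tested rose and 0.50% fell (0.974% in either direction). At an unadjusted p under 0.05, 23 of the 49 were higher and 0 were lower, against 12.8% of all genes in either direction. No member was called lower by DESeq2 either. Log2 fold changes of CpG over untreated were above 0 in 45 of 49 (91.8%), against 48.9% of all genes tested, and their median was 0.26 against -0.005. In 22 genes (44.9%) every CpG library lay above every untreated one, as in 9.20% of all genes, and in 0 did every CpG library lie below, against 9.47%. Most changes were small, with 40 of 49 below 0.5 in absolute log2 fold change and 3 above 1 (Ifi44, Zbp1 and Rsad2, all higher). Of all 11602 genes tested, 10382 were below 0.5 in absolute value and 181 were above 1. The share below 0.5 was thus smaller among the 49 than among all genes, and the share above 1 was larger.

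Libraries with the same replicate number deviated together from their group means, so the number was also fitted as a block. With the block 15 of the 49 rose (30.6%) and 0 fell, against 4.73% and 3.78% of all genes (8.52% in either direction). These were Ifi44, Ifitm1, Parp12, Dtx3l, Parp14, Parp9, Dhx58, Cmpk2, Nmi, Eif2ak2, Lgals3bp, Xaf1, Phf11d, Samd9l and Ifi27l2a, and Ifi44 was the 1 gene called by both fits. DESeq2 without the block called 7 higher (14.3%, against 2.24% of all genes higher, 1.45% lower and 3.69% in either direction): Ifi44, Rsad2, Zbp1, Ifitm1, Dtx3l, Parp12 and Parp9. The count of calls by edgeR rested on single libraries. It was 0 without CpG replicate 2 or 3 or without untreated replicate 3 or 4, with 13, 11, 13 and 17 genes higher at an unadjusted p under 0.05, and it was 9 without CpG replicate 4, against 2.32% of all genes called higher in that fit, 0.936% lower and 3.26% in either direction. Those 9 were Ifi44, Zbp1, Rsad2, Isg15, Ifitm1, Isg20, Pml, Bst2 and Parp12.

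CpG library 4 was the lowest of its group in 34 of the 49 genes (69.4%), against 35.0% of all genes tested. Within replicate numbers, the median log2 ratio of the 49 was 0.24 for number 2, 0.40 for number 3 and 0.13 for number 4. Of the 49, 41, 47 and 40 genes were above 0 in these pairs, and 33 were above 0 in all 3 (67.3%, against 22.2% of all genes). The summed erythroid markers were also lowest in CpG library 4 within that group. The map of ratios by replicate number shows a paler column for number 4.

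**Figure D2:**
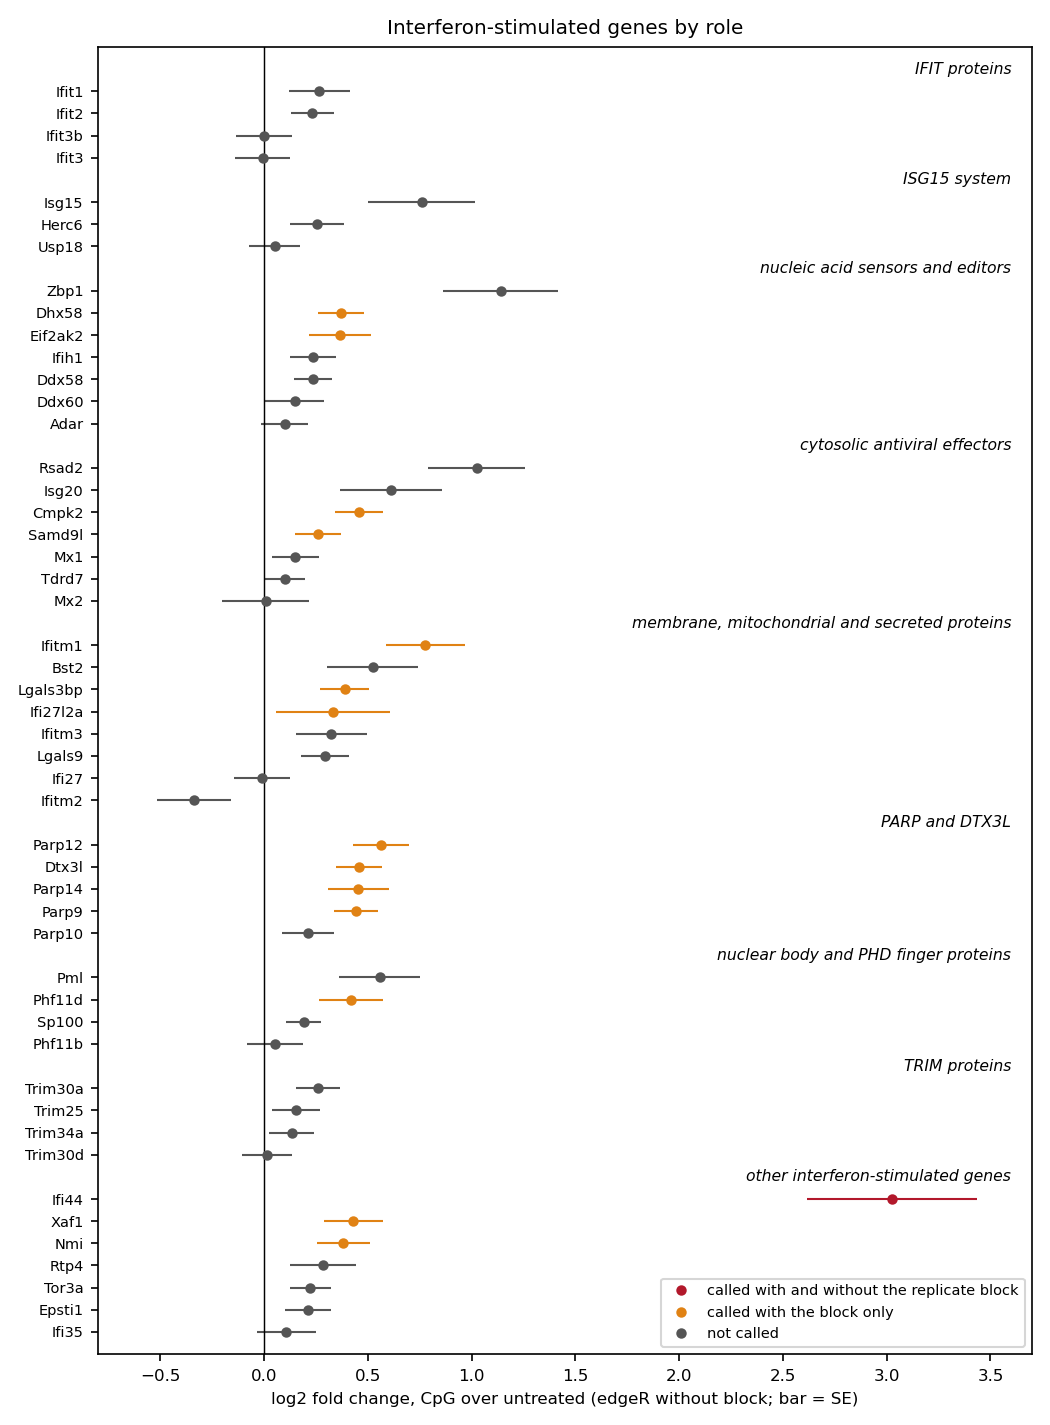
Log2 fold change of CpG over untreated for the 49 genes by role, with the standard error as bar, from the fit without the block (n = 3 per group). Ifi44 stands alone at 3.02, and 14 further genes (orange) were called with the block only.

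**Figure D3:**
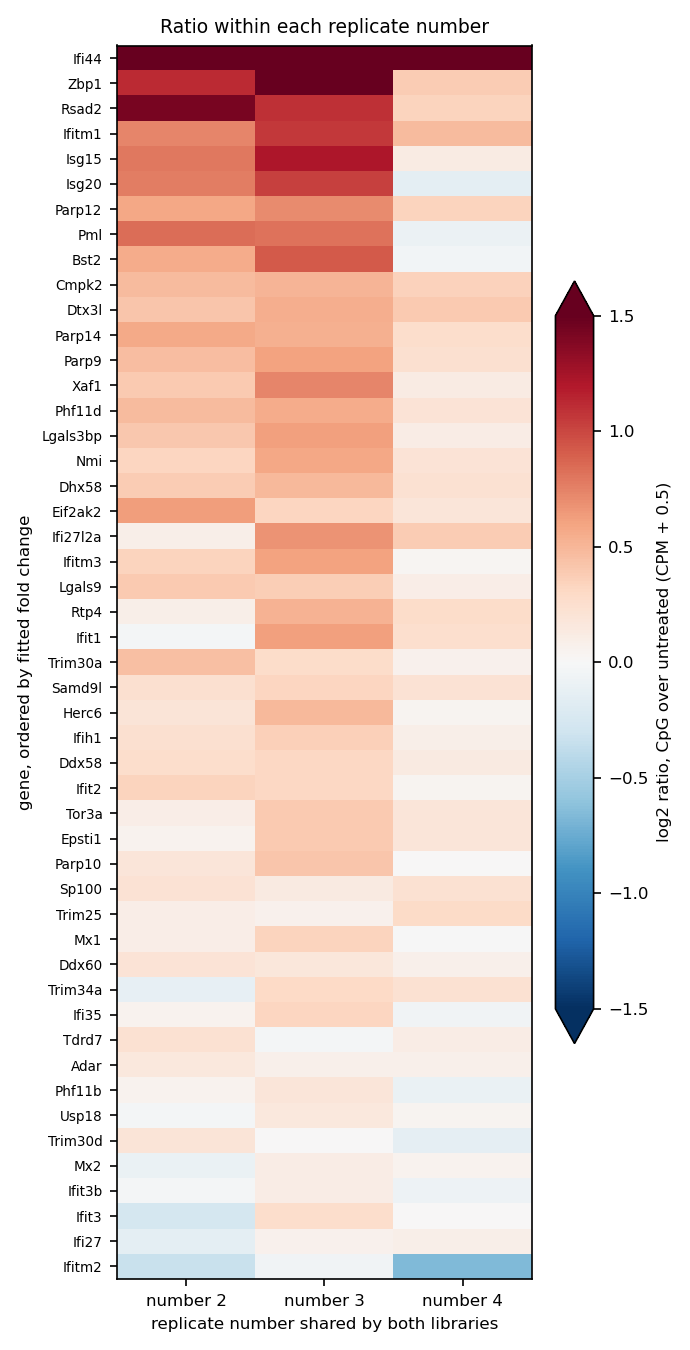
Log2 ratio of CPM (with 0.5 added) in CpG over untreated for each replicate number, 1 row per gene ordered by fitted fold change, colours clipped at 1.5. Ratios in number 4 were mostly smaller (median 0.13) than in numbers 2 and 3 (0.24 and 0.40).

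Ifi44, which encodes a cytoplasmic protein strongly induced by interferon, was the gene that rose both with and without the block. It stood at 6.64, 3.00 and 2.21 CPM without CpG and at 34.3, 43.0 and 19.5 CPM with it (libraries 2, 3 and 4). Every CpG library was thus well above every untreated one, although CpG library 4 was again the lowest of its group. The means were 3.95 ± 2.36 and 32.3 ± 11.9 CPM (SD, n = 3 each), and the log2 fold change was 3.02 with an SE of 0.41 (edgeR adjusted p = 0.0379, and 0.000164 with the block). The fold change was 2.73 to 3.64 when any 1 library was left out. The adjusted p from edgeR was then 0.142 without CpG replicate 2, 0.123 without CpG replicate 3, 0.136 without untreated replicate 3 and 0.148 without untreated replicate 4. The gene (Entrez 99899) lies on GRCm38 chromosome 3, from 151730922 to 151749910. None of its transcript words (every run of 50 bases) occurs in a transcript of another gene.

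The IFIT genes encode tetratricopeptide proteins that bind foreign RNA, and they lie together on chromosome 19. None of the 4 passed the test with or without the block. Ifit1 stood at 49.0, 32.9 and 42.4 CPM without CpG and at 48.2, 50.6 and 50.8 CPM with it (libraries 2, 3 and 4), and the groups overlapped (log2 fold change 0.27, 95% interval -0.07 to 0.60, edgeR adjusted p = 0.537). Ifit3 stood at 61.2, 45.8 and 47.7 CPM and at 51.0, 55.0 and 47.9 CPM. Its groups overlapped fully, with a log2 fold change of -0.01 and a 95% interval of -0.31 to 0.30. Ifit2 was the 1 member of this family whose groups did not overlap (0.23, adjusted p = 0.404). Ifit3 and Ifit3b share much sequence: 51.2% of the 50-base words in Ifit3 transcripts also occur in other genes and 45.0% of those in Ifit3b. Which copy their counts came from is therefore uncertain. The range of Ifit1bl1 also covers Ifit1 and Ifit3b. In 31 of the 49 genes under 5% of words are shared.

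The element through which interferon acts was looked for in promoters, from 250 bases before to 50 bases after each RefSeq start (GRCm38.p6). The word searched was GAAA, any 2 bases, then GAAA, on either strand, the core of the interferon-stimulated response element. Of the 37 genes with a promoter in the table, 18 held a match (48.6%), against 3.99% of all genes with a promoter. The 9-base word TTCNNNGAA of gamma-activated sites, which bind STAT dimers, was in 7 of the 37 (18.9%), against 9.55% of all genes. Matches of the 2 words may share bases. A match is a description of letters, not of a site in use. The following stretches lie upstream of the start, are read in the gene's direction 5′ to 3′, and carry the matched bases in capitals. They are shown because they set genes with larger fold changes (Isg15 at 0.76, Rsad2 at 1.02) beside genes near 0 (Ifit3, Ifit3b, Trim30d), all with the word, and because the near-identical copies can be read side by side.
Ifit1, chr19:34640770-34640828, plus strand: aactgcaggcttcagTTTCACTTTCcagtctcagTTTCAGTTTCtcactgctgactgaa
Ifit3, chr19:34583358-34583431, plus strand: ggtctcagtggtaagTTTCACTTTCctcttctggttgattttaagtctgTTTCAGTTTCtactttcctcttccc
Ifit3b, chr19:34607754-34607827, plus strand: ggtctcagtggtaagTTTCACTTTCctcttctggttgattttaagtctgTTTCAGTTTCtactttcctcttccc
Isg15, chr4:156200860-156200911, minus strand: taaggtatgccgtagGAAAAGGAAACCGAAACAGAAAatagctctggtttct
Rsad2, chr12:26456548-26456587, minus strand: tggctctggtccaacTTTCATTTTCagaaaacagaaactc
Trim30a, chr7:104465205-104465244, minus strand: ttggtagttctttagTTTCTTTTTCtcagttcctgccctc
Trim30d, chr7:104507866-104507905, minus strand: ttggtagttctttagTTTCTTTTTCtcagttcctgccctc

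The stretches of Ifit3 and Ifit3b are identical over 74 bases, and those of Trim30a and Trim30d over 40. In Isg15, 3 overlapping matches run from -78 to -57 relative to the start. The 18 genes with a match had a median log2 fold change of 0.24 (range -0.34 to 1.02), and 1 of them, Eif2ak2, was called with the block. The 19 genes with a promoter but no match, Ifi44 among them, had a median of 0.39 (range 0.10 to 3.02), with 10 called with the block. A missing match says only that these letters are not in this window, and the difference between these medians was not tested.

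Genes of the ISG15 system did not pass the test with or without the block. Isg15, which encodes a ubiquitin-like modifier, stood at 59.4, 38.5 and 46.1 CPM without CpG and at 103, 90.2 and 50.4 CPM with it (libraries 2, 3 and 4). CpG libraries 2 and 3 were above all untreated ones, and CpG library 4 was within their range. Its log2 fold change was 0.76 (SE 0.26, edgeR adjusted p = 0.251, and 0.181 with the block). Without CpG replicate 4 it was 1.01 (adjusted p = 0.0349). Usp18, whose product removes ISG15 and damps the interferon receptor, had 0.05 (95% interval -0.23 to 0.33), and Herc6, the main ISG15 ligase in mice, had 0.25 (adjusted p = 0.502).

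Among 7 sensors and editors of nucleic acids none passed the test without the block, and 2 rose with it. Zbp1, a sensor of Z-form nucleic acids that can trigger cell death, had the second largest fold change of the 49. It stood at 93.4, 76.4 and 76.6 CPM without CpG and at 203, 239 and 100 CPM with it (libraries 2, 3 and 4). The groups did not overlap, but CpG library 4 lay close to untreated library 2. The log2 fold change was 1.14 (SE 0.28, edgeR adjusted p = 0.103, and 0.216 with the block), DESeq2 gave an adjusted p of 0.00139, and without CpG replicate 4 the value was 1.43 (edgeR adjusted p = 0.00351). Dhx58, which encodes the RIG-I-like receptor LGP2, and Eif2ak2, which encodes the RNA-activated kinase PKR, rose with the block by 0.36 and 0.38 (adjusted p = 0.0114 and 0.0224). The RNA helicases RIG-I (Ddx58) and MDA5 (Ifih1) each had 0.24 with groups that did not overlap (edgeR adjusted p = 0.330 and 0.433). The RNA-editing gene Adar had 0.10 (95% interval -0.16 to 0.36).

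Of 7 cytosolic antiviral effectors none passed the test without the block, and Cmpk2 and Samd9l rose with it. Rsad2, which encodes viperin, an enzyme that makes a chain-terminating nucleotide, stood at 37.1, 41.5 and 39.1 CPM without CpG and at 101, 89.3 and 49.5 CPM with it (libraries 2, 3 and 4). All CpG libraries were above all untreated ones, with a wider spread. Its log2 fold change was 1.02 (SE 0.23, edgeR adjusted p = 0.0848, 0.108 with the block, and 0.00133 by DESeq2), and 1.28 without CpG replicate 4 (edgeR adjusted p = 0.00244). Cmpk2, the neighbouring nucleotide kinase gene on chromosome 12, had 0.46 with and without the block (adjusted p = 0.0162 with it and 0.113 without). Samd9l, a restriction factor of poxviruses and the most abundant of the 7 per length, stood at 237, 259 and 282 CPM and at 280, 324 and 328 CPM, so that each CpG library was above the untreated library of the same number but the groups overlapped. It gave 0.26 (SE 0.11, edgeR adjusted p = 0.368, and 0.0452 with the block). The dynamin-like GTPase gene Mx1 had 0.15 (95% interval -0.11 to 0.41) and Mx2 had 0.01 (-0.47 to 0.48).

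**Figure D4:**
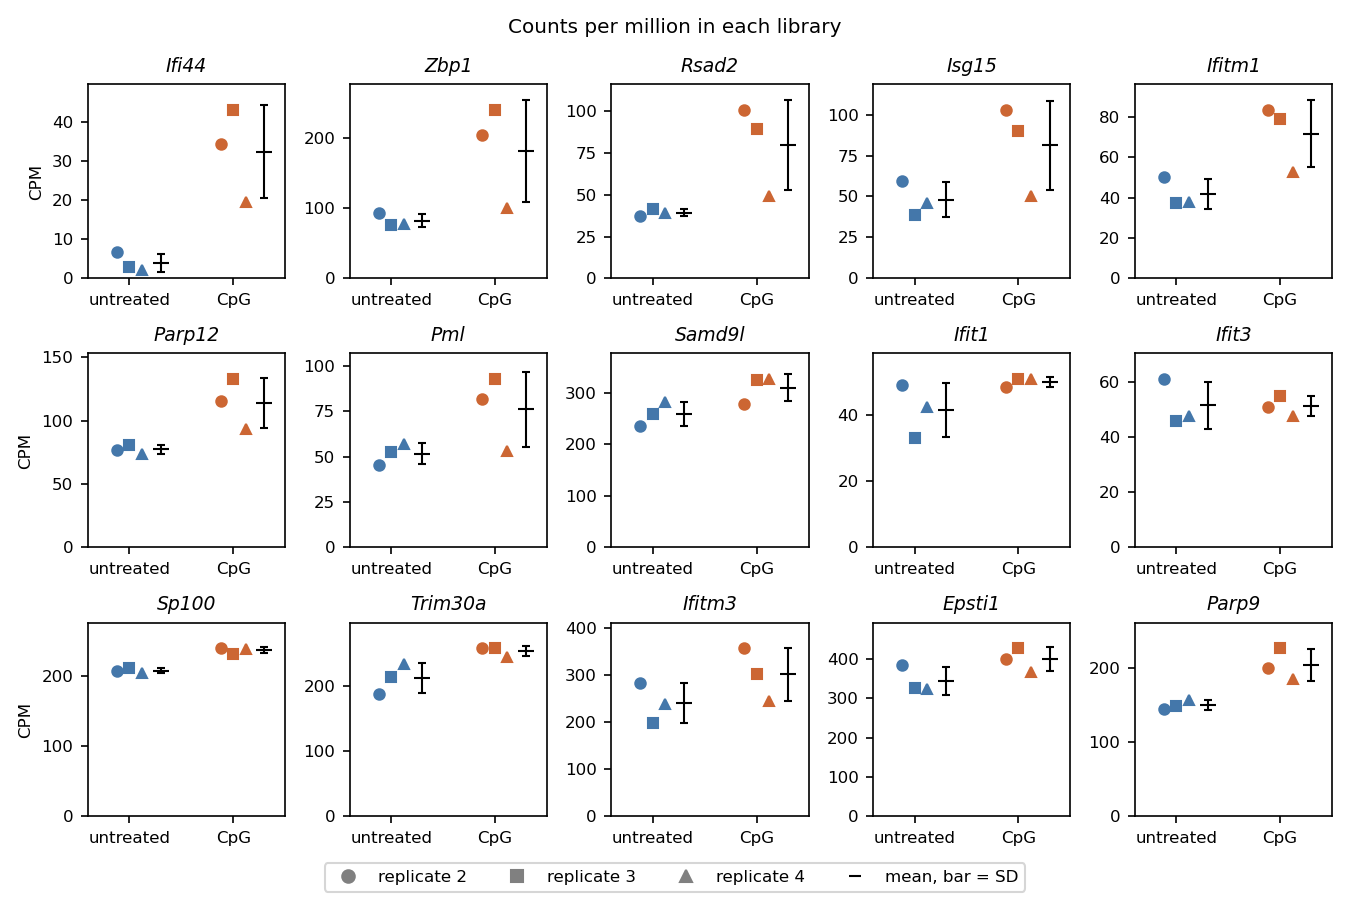
CPM of 15 genes in each library, blue for untreated and orange for CpG, marker shapes for replicate numbers, and the mean with its SD in black (n = 3). The CpG triangle, replicate 4, is the lowest of its group in Ifi44, Zbp1, Rsad2, Isg15, Ifitm1, Parp12 and Pml, among others. The groups overlap in Isg15, Pml, Samd9l, Ifit1, Ifit3, Ifitm3 and Epsti1.

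Genes of membrane, mitochondrial and secreted proteins had fold changes of both signs, and among the 8 none passed the test without the block. Ifitm1, a paralogue of Ifitm3, stood at 50.1, 37.4 and 37.9 CPM without CpG and at 83.4, 78.6 and 52.8 CPM with it (libraries 2, 3 and 4), with no overlap. Its log2 fold change was 0.78 (SE 0.19, edgeR adjusted p = 0.104), and it rose with the block (0.77, adjusted p = 0.000628) and by DESeq2 (adjusted p = 0.00891). Ifitm3 stood at 285, 200 and 240 CPM and at 359, 303 and 245 CPM, with overlap (0.32, SE 0.17, adjusted p = 0.512). Ifitm2, chosen here after its values were seen, had the lowest fold change of the 49 at -0.34 (adjusted p = 0.509, and 0.0687 with the block), and 48.5% of its 50-base words occur in other genes, so its counts are uncertain. Lgals3bp, a secreted glycoprotein gene, and Ifi27l2a rose with the block (0.38 and 0.37, adjusted p = 0.0292 and 0.0477). The groups of Lgals3bp did not overlap. Those of Ifi27l2a did, since untreated library 2 (106 CPM) was above CpG libraries 3 and 4 (83.95 and 73.55 CPM). Its edgeR adjusted p without the block was 0.735. The gene ranges of Ifi27l2a and Ifi27 overlap on chromosome 12, and Ifi27 had -0.01 (95% interval -0.32 to 0.30). Bst2, which encodes tetherin and is also a marker of plasmacytoid dendritic cells, had 0.52 (adjusted p = 0.363, and 0.185 with the block). The 9 plasmacytoid markers summed to 257 to 290 CPM in untreated and 295 to 336 CPM in CpG libraries, with none of the 6 tested called. Nearly all of that sum was Spib (136 and 162 CPM on average), Tcf4 (69.2 and 68.5) and Runx2 (59.8 and 72.3). The sum therefore says little about the other plasmacytoid markers. Among those, Siglech, which defines plasmacytoid cells, was at 1.40 and 1.75 CPM.

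The PARP genes encode members of the ADP-ribosyltransferase family, and Dtx3l encodes a ubiquitin ligase that works as a complex with PARP9. None of 5 passed the test without the block, and 4 of 5 rose with it, at log2 fold changes of 0.55 (Parp12), 0.46 (Parp14), 0.45 (Dtx3l) and 0.44 (Parp9) and adjusted p-values of 0.00134, 0.00293, 0.00193 and 0.00497. Parp12 stood at 76.9, 80.9 and 74.0 CPM without CpG and at 116, 133 and 93.6 CPM with it (libraries 2, 3 and 4). Parp9 stood at 144, 149 and 156 CPM and at 199, 227 and 184 CPM. In both genes all CpG libraries were above all untreated ones, at adjusted p = 0.0973 each by edgeR without the block. The 5th gene, Parp10, had 0.21 (adjusted p = 0.582, and 0.205 with the block). Parp9 and Dtx3l start next to each other on chromosome 16 and their ranges overlap by 558 bases, so without a stated strand setting a small part of their counts may be shared.

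PML and SP100 build nuclear bodies, and PHF11 proteins carry PHD fingers. Of these 4 genes none passed the test without the block, and Phf11d rose with it (0.42, adjusted p = 0.0299). Its neighbour Phf11b, with 47.0% of its words in other genes, had 0.05 (95% interval -0.26 to 0.36). Pml stood at 45.6, 52.8 and 56.8 CPM without CpG and at 81.9, 93.0 and 53.3 CPM with it (libraries 2, 3 and 4). CpG libraries 2 and 3 were high and CpG library 4 lay within the untreated range (0.56, SE 0.20, edgeR adjusted p = 0.263, and 0.0232 without CpG replicate 4). Sp100 showed the reverse arrangement, a small difference with little spread, at 207, 212 and 205 CPM against 241, 233 and 240 CPM. Its groups did not overlap (0.19, SE 0.08, adjusted p = 0.401, and 0.143 with the block).

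The TRIM genes encode ubiquitin ligases, and none of 4 passed the test with or without the block. Trim30a stood at 188, 214 and 234 CPM without CpG and at 258, 258 and 244 CPM with it (libraries 2, 3 and 4), without overlap (0.26, SE 0.11, edgeR adjusted p = 0.348). Trim30d, its neighbour with the same promoter stretch, had 0.02 (95% interval -0.26 to 0.29). Trim25, a ligase of the RIG-I pathway, had 0.15 (adjusted p = 0.702). Trim34a shares 59.7% of its words with other genes and had 0.13 (adjusted p = 0.730).

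Among the remaining genes, beside Ifi44, Xaf1 and Nmi rose with the block (0.42 and 0.38, adjusted p = 0.0293 and 0.0211). The groups of Nmi did not overlap, while in Xaf1 CpG library 4 was level with untreated library 2 (50.6 CPM). Xaf1 encodes a pro-apoptotic partner of XIAP, and Nmi a partner of the IFI35 protein. Epsti1 stood at 385, 325 and 324 CPM without CpG and at 401, 428 and 367 CPM with it (libraries 2, 3 and 4). The groups overlapped, since untreated library 2 was above CpG library 4 (0.21, SE 0.11, edgeR adjusted p = 0.501). Rtp4, Tor3a and Ifi35 had 0.28, 0.22 and 0.11, with none called by either fit.

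Genes that lie within 100 kb of each other were also compared within each library, since a ratio of 2 genes in a library does not depend on scaling. There were 17 such pairs, and in 7 of the 17 the ratio did not overlap between the groups. Among all pairs of tested genes this close, 18.9% did not overlap. The 7 share genes and are not independent: 3 are the pairs among Ifitm1, Ifitm2 and Ifitm3, and 5 involve Ifitm2, Phf11b or Ifit3, whose counts are uncertain as to copy. The design allows no exact two-sided p below 0.10 for such a single value. The largest shift was at the Ifitm locus on chromosome 7. The log2 ratio of Ifitm2 over Ifitm1 per kilobase was 1.10, 1.07 and 1.22 in untreated and 0.04, -0.05 and 0.07 in CpG libraries 2, 3 and 4. Ifitm2 was thus above Ifitm1 in untreated cells and level with it after CpG, in library 4 as in the others. By contrast the ratio of Ifit3 over Ifit3b, at 1.91, 1.76 and 1.61 against 1.67, 1.91 and 1.70, overlapped. So did that of Rsad2 over Cmpk2, at 0.45, 0.72 and 0.65 against 1.41, 1.30 and 0.63, where CpG library 4 lay among the untreated ones.

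The upstream part of the pathway was covered by 26 genes, from ligands to inhibitors. Of the 21 tested 4 rose with the block and 0 fell, where 4.73% of all genes rose and 3.78% fell. The ligand genes Ifnb1, Ifna1, Ifna2 and Ifna4 had 0 counts in all 6 libraries. By counting error alone this allows at most about 3 counts, or 0.368 to 0.380 CPM, per library. Words shared with other genes were not counted for these ligand genes, and the handling of multiply matching reads is unknown. Reads that match several genes may therefore be missing from these counts. The receptor genes Ifnar1 and Ifnar2 had log2 fold changes of -0.07 and 0.10 (edgeR adjusted p = 0.913 and 0.813), and the Toll-like receptor gene Tlr9 had 0.08 (adjusted p = 0.944). Stat2 had 0.30 (adjusted p = 0.360) and rose with the block (adjusted p = 0.0447), as did Irf1 (0.00845), Irf8 (0.0185) and the feedback inhibitor gene Socs3 (0.0437). Irf7, which amplifies interferon production, had 0.54 (adjusted p = 0.219, and 0.171 with the block).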

How the data were processed

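The authors deposited raw read counts by Entrez ID. CASAVA, featureCounts and build mm10 are named in the submitters' processing notes. Aligner, strand setting, handling of multiply matching reads and read length were not given in the sources used here. Gene lengths were those deposited with the counts, and the 6 sample tables equalled the series table. RefSeq GRCm38.p6 named 25275 of 27179 IDs.

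Differences were tested with edgeR 4.0.16 in R 4.3.3 (filterByExpr with minimum count 10 and total 15, TMM, robust quasi-likelihood F test, two-sided, Benjamini-Hochberg over 11602 genes, called at adjusted p under 0.05). Alternatives used DESeq2 1.42.0, limma-voom (limma 3.58.1), other scalings and filters, a replicate block, and each library left out. CPM use TMM library sizes. 1 count was 0.123 to 0.127 CPM. Fits were also run on simulated counts with the same dispersion (spread) setting for every gene and no replicate effect. Those runs cannot show how far calls rest on the block or on single libraries.

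The labels do not say what the replicate number marks. Deviations from group means correlated across genes at 0.48, 0.25 and 0.31 for numbers 2, 3 and 4, each over 0.1, and pairing rests on that alone. P-values reflect only the spread among these libraries.

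Members and lists were chosen with earlier results of these data known. Values in every library are given for called members and, per role, for the highest per length and the largest fold change (15 genes). Others named were chosen after their values were seen. Uncertain counts were gauged by 50-base words shared with other GENCODE M21 transcripts. The result of 1 gene of the pathway list is not reported here.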

Additional observations from a re-analysis of the deposited data

How the results depend on the processing

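The median log2 fold change of the 49 genes stayed between 0.23 and 0.32 under all alternatives, and no member was called lower under any of them. Counts of calls moved more. For genes called over the whole table, 113 without the block, the count was 988 with the replicate block, 428 by DESeq2, 189 without a filter, 41 by limma-voom and 0 to 386 with 1 library left out. Members called higher numbered 15 with the block, 7 by DESeq2 and 0 to 9 with 1 library left out, against 1. Without CpG replicate 2 or 3 no gene was called by edgeR, with 1065 and 1107 at an unadjusted p under 0.05 and no other tool run. Pathway genes called, 1 without the block, numbered 4 with it, 4 by DESeq2, 0 by limma-voom (7 at an unadjusted p under 0.05) and 0 to 5 with 1 library left out. The causes of these moves were not tested. Fits that leave out a library also have fewer samples. The fold change of Ifit3, -0.01, turned to 0.003 by limma-voom, 0.04 without CpG replicate 4 and 0.15 without untreated replicate 2, within its interval, and lay between -0.088 and 0.148 with any 1 library left out. Of 195 values of the 15 genes under alternatives, 173 kept direction and side of the threshold, 15 passed it newly, 4 lost the call (Ifi44, with 1 library left out) and 3 turned (Ifit3). Depth did not limit detection of any member, the lowest being Ifi44 at 2.21 CPM. The match to the promoter word fell from 18 to 13 genes with upstream bases only.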
